A study of Homo sapiens with 19 samples.

Results

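The retinoblastoma protein RB had 4200 sites that appeared in both of the prostate cancer cell lines examined and carried no interval of V5-tagged E2F1 in any condition. These sites, called shared RB sites without V5 here, are intervals of the C4-2 RB list that overlap an interval of the VCaP RB list by at least 1 base and overlap no interval of any of the 8 V5 lists. They make up 4200 of the 5420 C4-2 RB intervals that also lie in the VCaP list, and 4200 of all 9146 C4-2 RB intervals. The presence of an RB interval in both lines and the absence of V5 intervals chose the sites, so both are given below as a description and support nothing.

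RB and V5 were mapped by chromatin immunoprecipitation with sequencing (ChIP-seq) in established prostate cancer lines grown in medium with 5% charcoal-stripped serum, RPMI medium for C4-2 and DMEM for VCaP. RB was precipitated with an anti-RB antibody from cells that received no treatment, with 2 libraries for C4-2 and 1 for VCaP. V5 was precipitated from C4-2 lines carrying a tetracycline-controlled E2F1, wild type (WT) or K185R (a lysine of E2F1 replaced by arginine), with 2 libraries for each of 4 treatments. The treatments were none, doxycycline at 0.25 ug/ml for 3 days, the LSD1 inhibitor GSK2879552 at 50 uM for 24 hours, and doxycycline with GSK2879552 added. The RB map of C4-2 and the 8 V5 maps therefore come from different derivatives of C4-2, and no V5 map of VCaP was analysed here. Whether the tagged protein is made in the absence of doxycycline, and whether each line is 1 clone, is not stated. Names of the V5 lists read siNTC and siRB where the treatment labels read untreated and doxycycline, and the groups below follow the labels. Intervals of RB in C4-2 are named after only 1 library, and those of VCaP contain NODHT, a term the labels do not explain.

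RB is the pocket protein that binds the transactivation domain of E2F factors and represses their target genes until cyclin-dependent kinases phosphorylate it. E2F1 is the best-studied partner of RB and binds DNA at promoters of cell cycle and DNA replication genes. RB can also reach chromatin through other E2F members and other partners, and an RB site without tagged E2F1 is one at which the 2 proteins were not both called by these assays. LSD1 (KDM1A) is a histone lysine demethylase.

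Each group is represented by 1 list of intervals, so no value below has a replicate error and no p-value was computed. The 95% intervals given are over sites and cover counting error only, and PCR reads without molecular identifiers are not independent molecules. Depth differed between the lists by an estimate made from the lists themselves, not from library sizes. This estimate is the lowest local background that at least 5 intervals of a list share, divided by the smallest interval width. It came to 8.21 reads per kilobase for RB in C4-2 and 2.98 for RB in VCaP, against 0.716 to 1.79 in the V5 lists. V5 lists held between 2805 and 64025 intervals, with a median of 5 or 6 reads at the summit, so a weak V5 site may have been missed. Absence of a V5 interval here means that none was called at this depth. Positions are hg19, the build of the submitters' processing notes, counted from 1. No hg19 annotation was used here, so sites are given by position and not by gene.

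Most RB sites of both lines had no V5 interval. Of the 5420 shared sites, 4200 (77.5%, 95% Wilson interval 76.4 to 78.6) had none. The number was 2105 with a −log10 q of at least 5 in both RB lists, 1451 where RB intervals shared 50% of both lengths and 2708 with RB summits within 100 bases. Over all 9146 C4-2 RB intervals the share without V5 was 74.6%, so the share among the shared sites lies near that background. Among the 3726 C4-2 RB intervals with no VCaP interval it was 70.4% (68.9 to 71.8). The 11892 VCaP intervals with no C4-2 RB interval were without V5 in 97.0% (96.7 to 97.3). Against the remaining shared sites, the members were the large mode of a steeply falling distribution. A V5 interval in exactly 1 list was found at 558 shared sites, in 2 lists at 228, in 3 at 122, in 4 at 76, in 5 at 35, in 6 at 31 and in 7 at 18. The number then rose to 152 sites with all 8 lists. At these 152 sites the local background in C4-2 was high, at a median of 17.7 times the floor of the list, the lowest background that at least 5 intervals share. At the members the median was 1.89 times the floor.

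**Figure D1:**
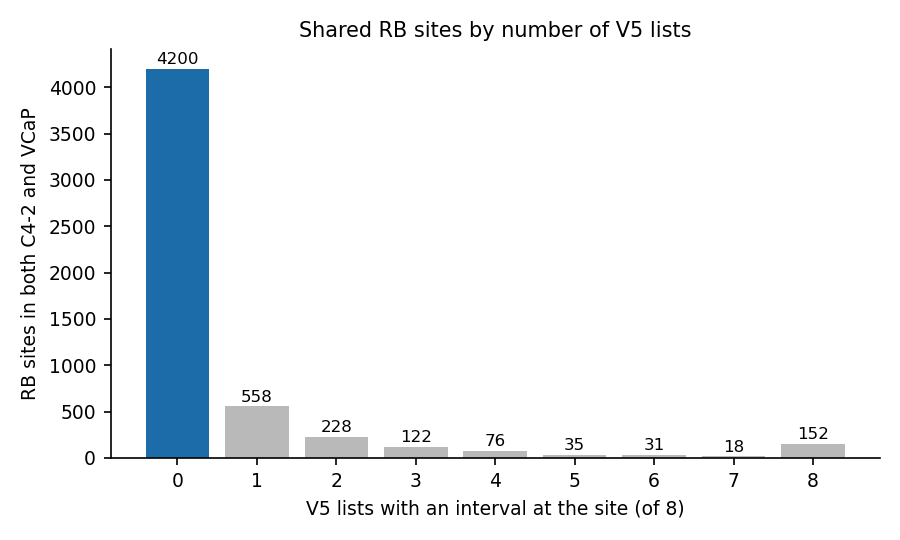
Number of RB sites found in both C4-2 and VCaP (vertical axis) by the number of V5 lists, of 8, that have an interval at the site (horizontal axis). The blue bar is the 4200 sites with no V5 interval, and the grey bars fall from 558 sites with 1 list to 18 with 7 before rising to 152 with all 8.

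No single V5 list determined which sites were members. Among the 5420 shared sites, WT V5 intervals were found at 583 without treatment, 389 after doxycycline, 634 after GSK2879552 and 719 after both agents. K185R V5 intervals were found at 324, 242, 302 and 194 in the same order. Each of the 4 WT lists covered more shared sites than any K185R list, an order that was not tested. The 2 shorter of the 4 WT lists, 2805 intervals with GSK2879552 and 3874 with both agents, covered the most shared sites, while the longest list, WT with doxycycline, covered 389 with its 64025 intervals. A site missed being a member through 1 list alone most often in WT with both agents, at 218 sites, and in WT with GSK2879552, at 158. WT untreated alone removed 106 sites and WT with doxycycline 35. The 4 K185R lists removed 17, 5, 18 and 1 sites alone. Without the K185R lists, 4251 shared sites would have had no V5, and without the WT lists 4995. The WT lists therefore set nearly all of the membership.

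The members spanned a wide range of RB enrichment. In C4-2 their fold enrichment over the local background, the authors' own value for each interval, ran from 1.81 to 22.1 with a median of 5.80 (5.74 to 5.86). In VCaP the overlapping interval had folds from 1.35 to 25.3 with a median of 6.43 (6.36 to 6.52). Summit reads ran from 6 to 123 in C4-2, with a median of 14, and from 6 to 423 in VCaP, with a median of 16. Shared sites with a V5 interval in at least 1 list were stronger. Their median fold was 6.48 (6.33 to 6.67) in C4-2 and 6.87 (6.71 to 7.05) in VCaP, from medians of 19 and 20 reads. The members' median was thus 0.895 times that of the sites with V5 in C4-2 and 0.936 times in VCaP, and the distributions overlapped over most of their range. C4-2-only RB sites without V5 lay below the members in C4-2, at a median fold of 5.26 (5.20 to 5.31) and 12 reads.

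The gap to the sites with V5 was small in fold and larger in reads and width. The median −log10 q of the authors was 5.78 at members and 9.62 at shared sites with V5. Members were 174 bases wide at the median in C4-2, against 230 for shared sites with V5. Their local background was 1.89 times the floor against 2.23 in C4-2, and 2.48 against 3.02 in VCaP. A wider interval has more bases in which a V5 interval can fall, and the part of width, depth and background in the result was not tested. Most chromosomes had the same direction, but they are parts of the same lists and not replicates. Among the 23 chromosomes other than Y and M, the median C4-2 fold of members was below that of shared sites with V5 on 21, the C4-2 reads on 23, the VCaP fold on 20 and the VCaP reads on 23. Chromosomes 16 and 18 went the other way in C4-2 fold, with medians of 6.02 against 5.52 and 6.12 against 5.09. Sites with WT V5 only (795) had a median C4-2 fold of 6.67 (6.45 to 6.80), above that of the members. Sites with K185R V5 (425) had 6.04 (5.77 to 6.44), an interval that overlaps that of the members, from 40 reads over a background of 3.67 times the floor. In VCaP the latter had a median fold of 6.42, level with the 6.43 of the members.

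**Figure D2:**
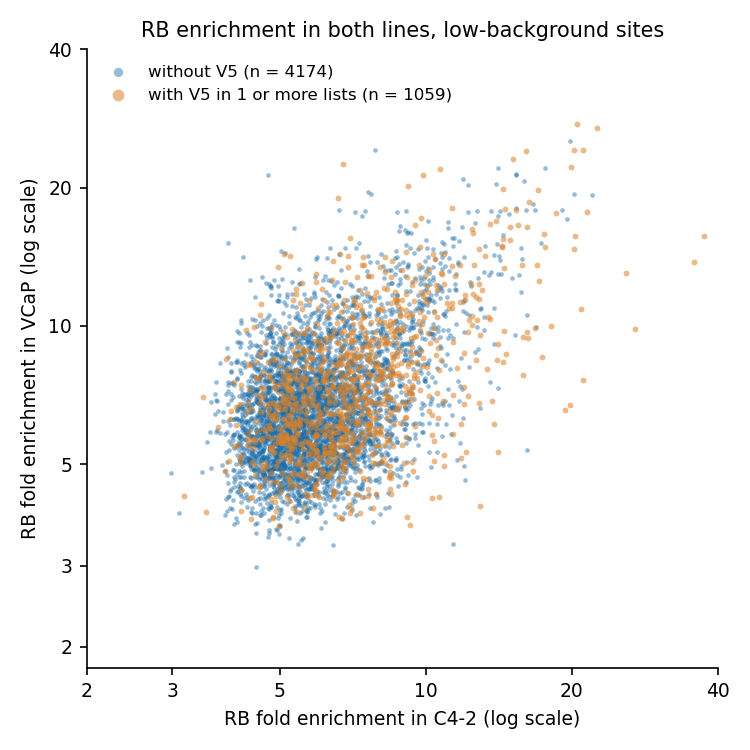
RB fold enrichment in C4-2 (horizontal axis, log scale) against the fold of the overlapping VCaP interval (vertical axis, log scale) for shared RB sites whose C4-2 background is under 10 times the floor. The 4174 sites without V5 (blue) and the 1059 with V5 in at least 1 list (orange) cover the same area of the plot, and the few points above a C4-2 fold of 22.1 are all orange.

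The share of sites without V5 fell as RB reads rose, and in these lists it was lower at C4-2-only sites than at shared sites from 13 reads upwards. Sites of high background, at least 10 times the floor, are left out of this comparison. At 6 to 10 C4-2 summit reads, 91.8% (89.6 to 93.6) of 697 shared sites and 90.3% (87.9 to 92.2) of 720 C4-2-only sites had no V5. At 11 to 12 reads the shares were 86.1% (83.9 to 88.2) and 85.8% (83.2 to 88.0), which counting error does not separate. Above that the share was lower at C4-2-only sites in each class of reads, a difference on which no replicate bears. The shares were 85.3% (83.4 to 87.1) against 78.3% (75.4 to 80.9) at 13 to 15 reads, and 76.6% (74.1 to 78.9) against 66.2% (62.2 to 70.1) at 16 to 20. At 21 to 30 reads they were 66.1% (62.5 to 69.6) against 41.0% (36.0 to 46.3). At 31 reads or more, 44.8% (39.0 to 50.8) of 270 shared sites and 15.2% (11.0 to 20.6) of 211 C4-2-only sites had no V5. These shares are made of the same calls that chose the sites, from 1 list per group, so they describe these lists and were not tested. Shared sites are also wider. Over these low-background sites of any read count, the share without V5 was higher at shared than at C4-2-only sites in each of 5 classes of width. It ran from 89.9% against 80.4% at 100 to 120 bases to 62.0% against 56.7% at 301 bases or more. The intervals overlapped in the last 2 classes, at 74.0 to 79.1 against 64.9 to 74.9 for 221 to 300 bases and at 58.7 to 65.2 against 48.5 to 64.6 above that.

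**Figure D3:**
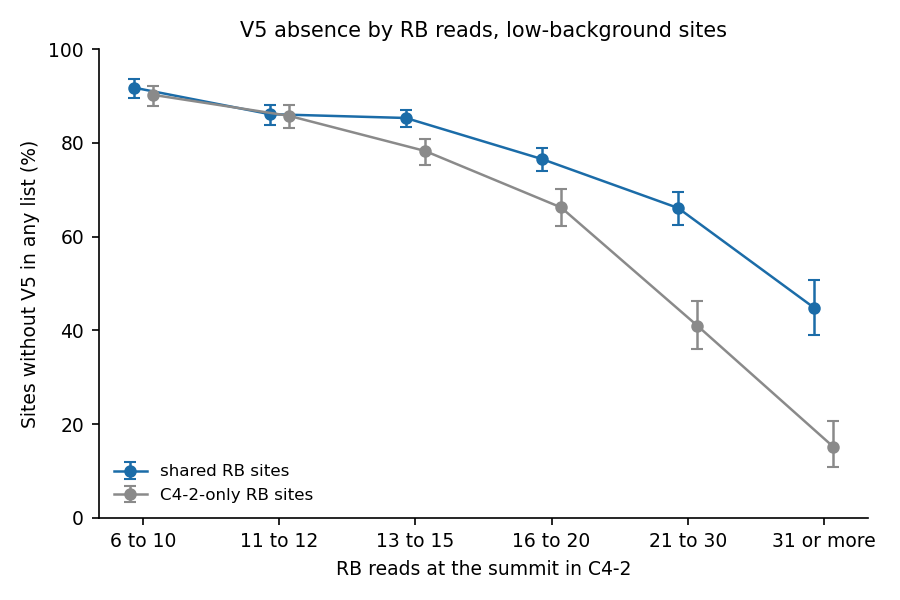
Share of C4-2 RB sites without V5 in any list (vertical axis, %) in classes of C4-2 RB summit reads (horizontal axis), for shared sites (blue) and C4-2-only sites (grey) of background under 10 times the floor. Bars are 95% Wilson intervals over sites, and the curves part from 13 reads upwards to reach 44.8% and 15.2% at 31 reads or more.

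Most of the strongest members in C4-2 were strong in VCaP as well, where the rule already required an interval. The 121 low-background members with at least 31 C4-2 reads lay on 20 chromosomes and had a median fold of 11.99 in C4-2 (range 6.37 to 22.1) and 12.01 in VCaP (3.35 to 25.3), against a median of 6.43 in VCaP over all members. The 149 shared sites with V5 at the same C4-2 reads had a median VCaP fold of 10.01. Below 21 C4-2 reads the order was the other way round. At 6 to 10 C4-2 reads the median VCaP fold was 5.89 at members and 6.07 at sites with V5, at 16 to 20 reads it was 6.67 and 7.06. At 21 to 30 reads the medians were nearly level, at 8.22 and 8.17. Summits of the 121 strong members lay a median of 27 bases from the VCaP summit, and 13 of them (10.7%) had a V5 interval within 1 kilobase. Among all 270 shared sites of that strength, each V5 list covered between 19.3% (K185R with both agents, 52 sites) and 40% (WT with both agents, 108 sites).

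The strongest members are named by position, chosen by fold within each list. The highest C4-2 fold among members was 22.1, at chr5:40756028-40756414, from 76 reads. VCaP had a fold of 19.2 from 83 reads there, and the nearest V5 interval of any list lay 2728 bases away. At chr12:123011650-123012011 the fold was 20.2 from 77 reads in C4-2 and 19.4 from 123 reads in VCaP, with a V5 interval of the WT doxycycline list 973 bases away. The site chr12:57145824-57146270 had the highest VCaP fold of all members and the best sum of ranks over both lines. Its fold was 19.8 from 84 reads in C4-2 and 25.3 from 159 reads in VCaP, the summits were 27 bases apart, and the nearest V5 interval was 25887 bases away.

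Other strong members were as well matched between the lines. At chr17:57642584-57643005 the fold was 19.6 in C4-2 and 17.1 in VCaP, with 34233 bases to the nearest V5 interval. At chr16:30064134-30064520 the folds were 19.1 and 17.8 and the summits lay 1 base apart. At chr11:9594912-9595350 they were 17.6 and 22.1, and VCaP had 152 reads at the summit against 69 in C4-2. These 3 sites show RB summits of both lines within 21 bases of each other and no V5 interval closer than 9647 bases. The site chr14:105071080-105071430 was the least even of the 10 highest in C4-2, with a fold of 16.9 there and 9.94 in VCaP. The remaining 3 of those 10, at chr17:60500965-60501367, chr5:179061380-179061755 and chr11:75863250-75863497, had C4-2 folds from 16.7 to 17.3 and VCaP folds from 15.2 to 18.4.

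The members of highest VCaP fold ranged more widely in C4-2. At chr19:49164329-49164540 the VCaP fold was 24.1 from 75 reads and the C4-2 fold 7.85 from 14 reads, and a V5 interval of the WT doxycycline list lay 382 bases away. This C4-2 fold lay below 9.84, the value under which 95% of all members lie. The others below lay above 9.84 in C4-2, apart from 1 of a pair on chromosome 20. At chr12:118454366-118454760 the folds were 20.8 in VCaP and 11.9 in C4-2, and at chr11:67593889-67594149 they were 20.4 and 13.9. The site chr5:176005386-176005654 had 21.4 in VCaP and 15.4 in C4-2, chr2:174219265-174219712 had 22.1 and 14.1, and chr20:5099854-5100287 had 20.7 and 15.9. One VCaP interval of fold 21.3 held a pair of members, chr20:35724006-35724132 with a C4-2 fold of 4.74 and chr20:35724226-35724662 with 15.4. The former is a member through an interval whose summit lies 451 bases from its own.

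Members share VCaP intervals. The 4200 members lay in 3998 VCaP intervals, of which 3802 held 1 member, 190 held 2 and 6 held 3, so the VCaP values of 398 members are not their own alone. Of the 3998 VCaP intervals, 114 (2.85%) overlapped a V5 interval outside the member. Of the same 3998, 58 (1.45%) also overlapped a C4-2 RB interval that has V5. Members were also close to each other in places. The median gap between neighbouring members was 217.4 kilobases, while 265 of 4175 gaps (6.35%) were under 1 kilobase.

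Enrichment in both lines rose together, most clearly at the top. Over the 4200 members the folds of C4-2 and VCaP had a Pearson r of 0.53 and a Spearman rho of 0.33. These are descriptions over sites of 1 pair of lists, which share sequence, mappability and the requirement of an interval in both. In 5 equal classes of C4-2 fold the median VCaP fold was 5.91, 6.06, 6.26, 6.47 and 8.21. The distance between the summits of both lines fell over these classes, with medians of 92, 86, 75, 68 and 41 bases. The width of VCaP intervals did not follow, with medians between 379.5 and 406 bases. Over all members the summits lay a median of 70 bases apart. They lay within 50 bases of each other at 38.9% of members and 44.75% of shared sites with V5, and within 200 bases at 89.3% and 90.1%.

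Among the top C4-2 RB sites the members were a smaller part of the shared sites than the 77.5% over all 5420 shared sites. Of the 100 C4-2 RB intervals of highest fold, 59 were shared with VCaP and 23 of the 59 (39.0%) were members. Of the top 500 and 2000, the members were 58.7% of 329 and 66.5% of 1376 shared sites. Of the 100 VCaP intervals of highest fold, 92 overlapped a C4-2 RB interval and 55 of the 92 (59.8%) held a member. For the top 500 and 2000 VCaP intervals the shares were 64.8% of 435 and 70.9% of 1424. A VCaP interval counts here if it holds any member, even where it also overlaps a C4-2 RB site with V5. The VCaP shares are thus over VCaP intervals and the C4-2 shares over C4-2 sites.

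The share of members with a V5 interval nearby was close to that over all C4-2 RB sites without V5. A V5 interval of any list lay within 1 kilobase of 462 members (11.0%, 10.1 to 11.98), a share that fell to 2.11% when V5 intervals needed a −log10 q of at least 5. Over all 6823 C4-2 RB sites without V5 the share was 12.4%, and at the 2623 C4-2-only sites it was 14.7% (13.4 to 16.1). The median gap to the nearest V5 interval was 5432 bases at members and 5214 at C4-2-only sites without V5, and 98.9% and 99.2% had one within 50 kilobases. The longest lists gave most of the nearest intervals, with WT doxycycline nearest at 1669 members and K185R untreated at 1241. The gap is thus mostly a measure of the 64025 and 55681 intervals of these lists.

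The 8 V5 lists differed in whether their intervals gathered beside the members. The number of V5 intervals per megabase at gaps of 0 to 1 kilobase was divided by that at 50 to 100 kilobases, over 4174 low-background members. WT with both agents had 13.1 per megabase near and 1.84 far, a ratio of 7.08. WT with GSK2879552 had 8.27 and 1.39, a ratio of 5.96. Both rest on few pairs of a member and a V5 interval, 109 and 69 near the members. The same V5 interval can count for more than 1 member. Untreated WT had a ratio of 1.55 from 79 such pairs.

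The other lists showed no such excess or the opposite. WT with doxycycline had 21.7 per megabase near and 26.25 far, a ratio of 0.826. K185R had ratios of 0.602 without treatment, 0.634 after doxycycline, 1.34 after GSK2879552 and 0.756 after both agents, the last from 8 pairs. At 1 to 2 kilobases, the ratios of the 8 lists lay between 0.767 and 1.36, so the excess of the GSK2879552-treated WT lists lay within the first kilobase. C4-2-only sites without V5 had near ratios of 6.68 for WT with both agents and 6.23 for WT with GSK2879552, close to those of the members. For untreated K185R they had 1.14 and for untreated WT 2.59, above those of the members. For K185R with GSK2879552 and with both agents they had 2.54 and 2.80, also above. Shared sites with WT V5 only had 5.56 for WT with both agents, 6.13 for WT with GSK2879552 and 0.522 for untreated K185R. Such ratios were thus not particular to the members. No replicate bears on these differences.

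**Figure D4:**
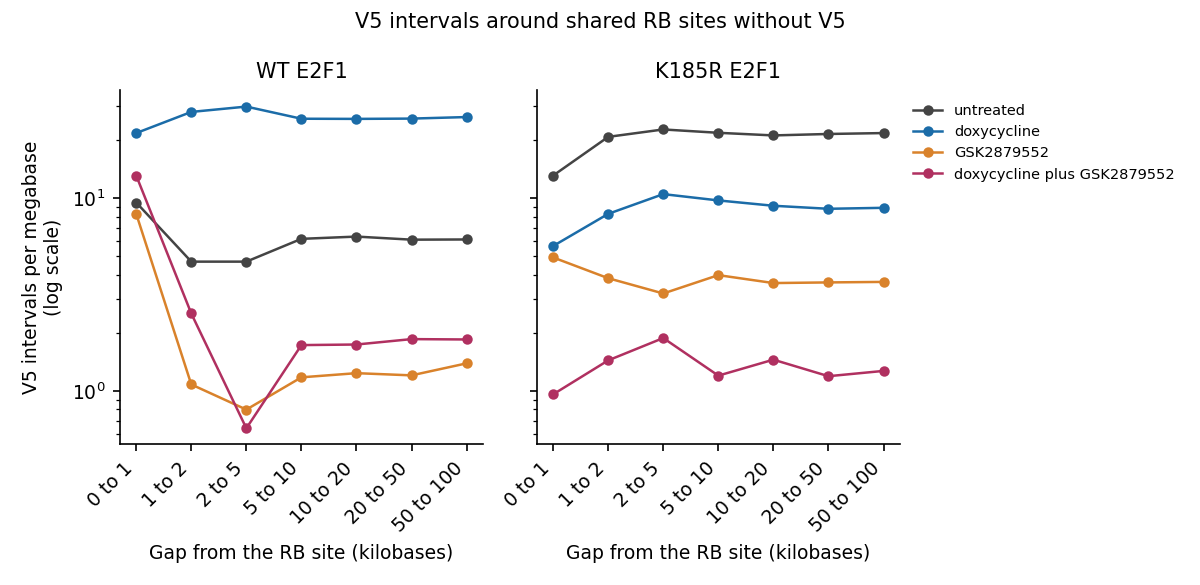
V5 intervals per megabase (vertical axis, log scale) by the gap from the 4174 low-background shared RB sites without V5 (horizontal axis, kilobases), for 4 WT lists on the left and 4 K185R lists on the right. In WT with GSK2879552 and with both agents the density within 1 kilobase is 5.96 and 7.08 times that at 50 to 100 kilobases, and in untreated K185R it is 0.602 times.

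Most V5 intervals beside members in the GSK2879552-treated WT lists overlapped an RB interval of either line. Each interval is counted once here, and an RB interval of VCaP may be the one that the member itself overlaps. Of 100 such intervals in WT with both agents, 81 overlapped an RB interval of either line, 52 of them one of C4-2 and 72 one of VCaP. In WT with GSK2879552 it was 50 of 65, and in untreated WT 49 of 77. In WT with doxycycline it was 39 of 171, and in untreated K185R 20 of 106. Their median summit reads lay between 5 and 8, against 5 or 6 in the whole lists.

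The sites nearest to the edges of the rule are given without a test, 3 on each side. The member closest to V5, chr11:17298196-17298338, touched an interval of K185R with GSK2879552 without sharing a base, and had RB folds of 6.18 in C4-2 and 7.01 in VCaP. The members chr7:26903805-26904024 and chr4:170192268-170192400 had gaps of 1 and 3 bases and C4-2 folds of 6.42 and 6.09. Just outside the rule, chr1:99127367-99127467 and chr20:47805019-47805142 overlapped a WT V5 interval by 3 bases each and had C4-2 folds of 5.22 and 5.17. The site chrX:41782817-41782937 overlapped one by 4 bases at a fold of 6. On the VCaP side, chr3:125485110-125485209 was a member by 1 base, and chr1:202317967-202318155 and chr10:70091690-70091846 by 2 bases each, at C4-2 folds of 5.67, 5.53 and 4.90. The C4-2-only sites chr1:9883972-9884168, chr1:184724151-184724288 and chr10:99094384-99094517 touched a VCaP interval without overlap, at folds of 4.56, 3.96 and 4.78.

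Members lay on every chromosome, unevenly. Chromosome 1 held the most, 412, and per megabase of the span covered by the lists chromosome 19 had 4.30, chromosome 17 had 3.15, chromosome 22 had 2.05 and chromosome 20 had 1.99. Leaving out Y and M, the lowest densities were 0.444 on chromosome X, 0.617 on chromosome 13 and 0.759 on chromosome 4. The share of shared sites without V5 was far more even, from 69.4% (63.0 to 75.2) on chromosome 10 to 86.4% (82.0 to 89.8) on chromosome 19. Of these 23 chromosomes, the interval of chromosome 19 lies above the share of 77.5% over all chromosomes and that of chromosome 10 below it. Among 23 such intervals some can miss the share over all chromosomes by counting error alone, and no difference between chromosomes was tested. On chromosome 17 the share was 81.5% (76.9 to 85.4). In windows of 5 megabases, the most members lay on chromosome 11 from 65 to 70 megabases, with 45 of 53 shared sites, and on chromosome 19 from 10 to 15 megabases, with 43 of 50.

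**Figure D5:**
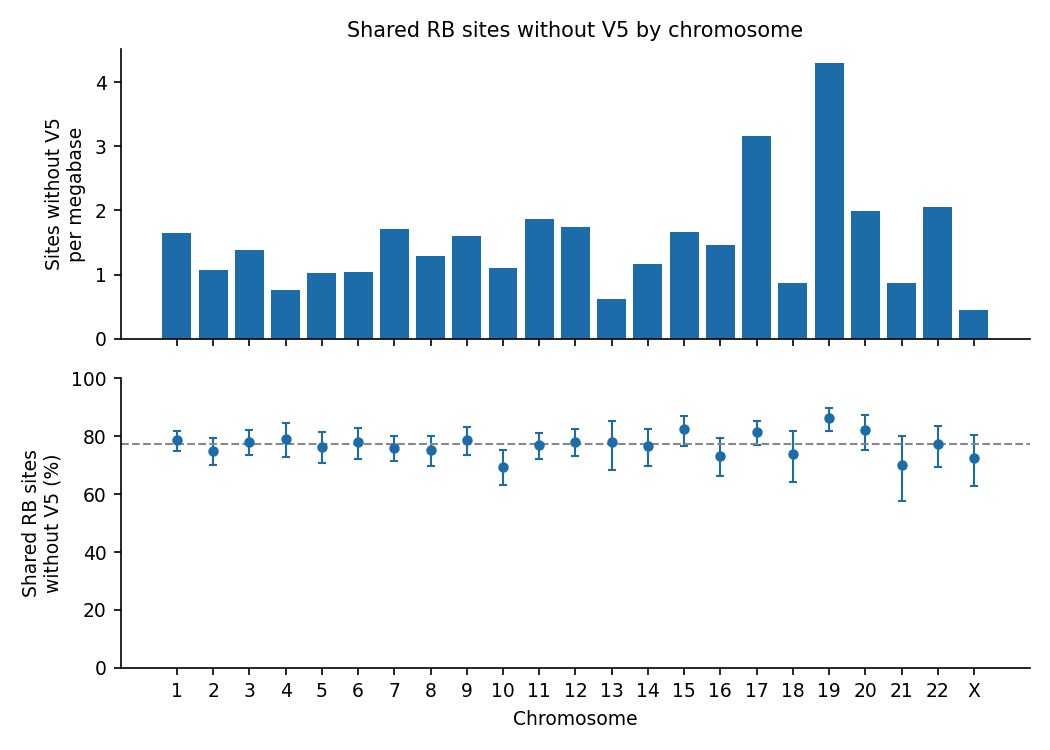
Shared RB sites without V5 per megabase (upper panel) and as a share of all shared RB sites (lower panel, %, with 95% Wilson intervals over sites) on chromosomes 1 to 22 and X. The dashed line is 77.5%, and chromosome 19 stands highest in both panels, at 4.30 per megabase and 86.4%.

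Local background differed between the lines in some windows. The ratio of the VCaP to the C4-2 background at members, each relative to the floor of its list, had a median of 1.31 over the 202 windows with at least 8 members. It was 2.97 in the window of chromosome 11 with 45 members, and 5.77 on chromosome 13 from 110 to 115 megabases, with 9 members. A fold is read against this background, so VCaP and C4-2 folds at members of such windows rest on different local levels. High background was rare at members, with 26 of 4200 (0.619%) at 10 times the floor or more, against 161 of 1220 (13.2%) at shared sites with V5. Of the 26, 8 lay on chromosome X, 6 on chromosome 1, 5 on Y and 2 on M. The 2 members on M, chrM:2630-2807 and chrM:15009-15334, had the lowest C4-2 folds named here, 1.81 and 2.01, from 76 and 83 reads.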

How the data were processed

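The authors deposited 1 list of MACS2 intervals for each of the 10 groups (19 libraries). Tools listed in the submitters' processing notes are MACS2 2.1.0, SAMtools 1.2, BWA 0.7.9a and FastQC 0.11.9, with hg19 as the build, and without settings, control libraries or duplicate removal. Each deposited interval has the authors' fold enrichment (a linear ratio), p and q as −log10 values and a display score, which was not used. Summit reads and local background were solved from the deposited fold and −log10 p, assuming that MACS2 adds 1 read to both terms and uses a Poisson p. Recomputed −log10 p differed by at most 0.00016. In simulated intervals, 1000 for each list, 100% of summit reads were recovered. The simulation used the same assumed formulas, so it checks the solving and cannot check the assumption.

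Overlap was at least 1 base, and gaps are in bases between interval edges. Medians have 95% order-statistic intervals and shares 95% Wilson intervals. Named sites are the 10 members of highest fold in each RB list, the 5 best by rank sum and 3 on each side of each edge of the rule; members on chromosome M were named after their values were seen. Members and lists were chosen with earlier results of these data known. Alternatives were stricter q, overlap and summit rules, leaving out each V5 list or sites of high background, and, chosen after seeing the data, a window of 100 bases on each side of the summit and the removal of chromosomes Y and M. Of the planned results, 2 were not run because they need an hg19 genome or annotation (distance to gene starts with 13 gene lists, and E2F motifs). Software was Python 3.11.15, numpy 2.4.6, pandas 2.3.3, scipy 1.17.1 and matplotlib 3.10.9.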

Additional observations from a re-analysis of the deposited data

Results flagged for a closer look

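The number of shared RB sites without a V5 interval moved in opposite directions with GSK2879552 in the WT and K185R lists. In WT it changed by -51 sites from untreated and by -330 from doxycycline. In K185R it changed by +22 and +48. With sites of high background left out, WT changed by -80 and -359 and K185R by -2 and +29, so the change from untreated K185R turned. The difference between WT and K185R was not tested, since each group has 1 list.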

How the results depend on the processing

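No paired analysis was possible because each group is represented by 1 list, in which its libraries are not separate. The number of members fell from 4200 to 2105 with a −log10 q of at least 5 in both RB lists, to 1451 when RB intervals had to share 50% of both lengths, and to 2708 with RB summits within 100 bases; these settings ask more of the RB overlap by construction. Under the other alternatives run it lay between 3738 (no V5 within 1 kilobase) and 4786 (−log10 q of at least 5 in the V5 lists). The ratio of the median C4-2 fold of members to that of shared sites with V5, 0.895, was 0.944 with stricter RB q, 0.926 with 50% overlap, 0.943 with no V5 within 1 kilobase and 0.858 without high-background sites. The ratio in VCaP, 0.936, was 0.901 with 50% overlap. Both stayed under 1 in every alternative run. The share of members with V5 within 1 kilobase, 11.0%, was 2.11% with stricter V5 q and 8.89% with 50% overlap. It was 9.80% without the list of untreated WT, 8.31% without WT doxycycline, 9.87% without WT with both agents and 9.58% without untreated K185R. The cause of these shifts was not tested beyond the construction named. Distance to gene starts and E2F motifs were not run. Whether depth limits the absence of V5 was not tested. The depth estimated from the lists was 0.716 to 1.79 reads per kilobase for V5 against 8.21 for RB in C4-2, so weak V5 sites could be missed. Among the V5 lists, WT with GSK2879552 had the lowest estimate, 0.716, and covered 634 shared sites. Untreated K185R had the highest, 1.79, and covered 324, while K185R with both agents, at 0.837, covered 194.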
